A study of Mus musculus with 55 samples.

Results

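The proteasome genes of the mouse optic nerve head (ONH) were followed after optic nerve crush. The ONH is the place where the axons of the retinal ganglion cells leave the eye. The genes were taken by symbol, as every gene with a probe set of its own whose symbol begins with Psma, Psmb, Psmc, Psmd, Psme, Psmf or Psmg and goes on with a digit. The rule found 48 genes among the 12393 named on the array, and each was read from its brightest probe set. They comprised 8 genes of the 20S alpha ring, 7 constitutive genes of the 20S beta ring, 3 immunoproteasome subunits, 17 subunits of the 19S regulatory particle, 7 assembly chaperones and 4 activators or inhibitors. Psmc3ip, which takes part in meiotic recombination, and Psme3ip1, whose product binds Psme3, were matched by symbol only and are no subunits. Psme2 shared its probe set with another gene symbol and was not analysed here, nor was Psmb11.

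All samples came from female C57Bl/6 mice that were 6 to 8 weeks old at surgery. The left nerve received the injury, a crush held for 10 seconds and placed 1 mm from the eye, and the unoperated right eyes gave the contralateral samples. The crush preceded collection by 1 day or 3 days, by 1 week or 3 weeks, or by 3 months, and naïve mice had no surgery. Each of the 11 groups had 5 arrays, and each array pooled 2 ONHs. The study paired the pools of left and right eyes from the same mice. Here the crushed and contralateral arrays of the same time and replicate number were taken as a pair, a match that the labels do not state. Arrays at 3 months formed a batch of their own and were compared only with each other.

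The proteasome is the cell's main protease for proteins tagged with ubiquitin. Its 20S core is a barrel of alpha rings, which gate the entry, and beta rings, which carry the cutting sites, and the 19S particle binds tagged proteins, strips the ubiquitin and unfolds them with a ring of ATPases. In cells exposed to interferon gamma, Psmb8, Psmb9 and Psmb10 replace the catalytic subunits Psmb5, Psmb6 and Psmb7, and the resulting immunoproteasome supplies peptides to MHC class I. Constitutive subunits are known to be induced together by Nfe2l1 when proteasome activity falls short.

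The promoters of 2 constitutive subunits and of the 2 immunoproteasome subunits of chromosome 17 are shown first, since the report turns on these pairs. Each is the 250 bases before the gene's start on its own strand, 5′ to 3′, from RefSeq on GRCm38.p6, and capitals mark the motifs found by letters.
Psmb5: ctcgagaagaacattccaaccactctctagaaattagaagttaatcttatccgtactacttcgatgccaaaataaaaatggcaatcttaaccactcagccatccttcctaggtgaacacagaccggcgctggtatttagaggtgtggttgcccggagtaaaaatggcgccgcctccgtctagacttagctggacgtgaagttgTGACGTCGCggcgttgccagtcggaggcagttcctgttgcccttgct
Psmb8: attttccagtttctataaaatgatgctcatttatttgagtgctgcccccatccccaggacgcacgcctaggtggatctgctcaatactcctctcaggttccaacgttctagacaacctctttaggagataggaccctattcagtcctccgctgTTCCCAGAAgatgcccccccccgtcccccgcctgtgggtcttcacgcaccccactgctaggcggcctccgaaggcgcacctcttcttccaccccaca
Psmb6: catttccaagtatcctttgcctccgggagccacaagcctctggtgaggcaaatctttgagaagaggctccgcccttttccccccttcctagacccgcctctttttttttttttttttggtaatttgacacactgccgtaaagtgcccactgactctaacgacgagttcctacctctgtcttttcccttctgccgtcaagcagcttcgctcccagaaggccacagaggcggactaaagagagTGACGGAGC
Psmb9: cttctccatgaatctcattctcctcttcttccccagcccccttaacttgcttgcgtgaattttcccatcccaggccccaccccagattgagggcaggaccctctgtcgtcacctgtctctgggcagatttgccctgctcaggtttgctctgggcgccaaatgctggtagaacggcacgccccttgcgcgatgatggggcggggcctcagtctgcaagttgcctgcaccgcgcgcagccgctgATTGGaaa

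Psmb5 lies at chr14:54617996-54618245 on the minus strand and Psmb6 at chr11:70525107-70525356 on the plus strand, and in both the capitals are the core of the antioxidant response element, TGACNNNGC. Psmb8 lies at chr17:34197945-34198194 on the plus strand, where the capitals are the gamma-activated sequence TTCNNNGAA, and Psmb9 at chr17:34187331-34187580 on the minus strand, where they are a CCAAT box read on the other strand. Both strands of all promoters of this length were searched. Of the 48 genes 40 had a promoter in the table, 43 promoters in all. The TGACNNNGC core was in 11.6% of them and in 10.2% of all 32851 promoters, TTCNNNGAA in 4.65% and 7.02%, and CCAAT in 34.9% and 33.8%. The interferon-stimulated response element, 2 copies of GAAA set 2 bases apart, was in 6.98% and 2.98%, and the kB motif in 2.33% and 3.9%. The first of these was in Psmb3, Psmd4 and Psmd9, and in none of Psmb8, Psmb9 and Psmb10. A match describes these letters only.

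The mixed tissue and its quality touch several of the results. The median of an array was 459 to 554 for the first batch and 494 to 598 for the second, and no 2 arrays were identical. Astrocyte markers were bright but fell after crush. Of 12 tested, 10, 5, 9 and 4 were lower and 0, 0, 0 and 1 higher from 1 day to 3 weeks. Their summed intensity at 1 day was 35945 to 47783 in crushed and 67100.5 to 72789 in contralateral samples, and Aqp4, the astrocyte water channel, was at -1.43 (adjusted p = 9.9e-09). The summed intensity of 8 photoreceptor markers ranged from 585 to 92560 between samples. Neutrophil markers rose at 1 day, when 6 of 7 tested were higher in crushed ONHs. Their summed intensity was 10686 to 21221 in crushed and 787 to 1297 in contralateral samples, and Ngp, Ltf and Elane stayed under 50 on average in both. Of 15 microglia and macrophage markers, 7, 11, 13 and 12 were higher and 6, 1, 1 and 1 were lower from 1 day to 3 weeks. Of 9 oligodendrocyte markers, 9, 8, 8 and 8 were lower at these times. Of 9 axon markers, 1, 5, 5 and 6 were lower and 1, 2, 0 and 0 higher. Their median log2 difference was -2.51 at 1 week and -2.16 at 3 weeks. Over all probe sets 25.8%, 25.2%, 23% and 10.4% were called higher at these times and 28%, 15.2%, 19.2% and 12.1% lower. The part of these shifts in the proteasome results was not tested, and in this whole tissue fewer cells of a type and less RNA per cell cannot be told apart. With the photoreceptor level of each sample as a covariate, an alternative chosen after seeing the data, 41, 33, 13 and 2 proteasome genes were called higher, against 40, 33, 12 and 2 without it.

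Most proteasome genes were higher in the crushed ONH at 1 day and 3 days, and few were at 3 weeks. At 1 day 40 of the 48 were called higher and 1, Psmf1, was called lower, at a limma adjusted p under 0.05. Over all 19313 probe sets tested 25.8% were called higher and 28% lower, so the share of proteasome genes was above the background in the first direction and below it in the second. At 3 days 33 were higher and 2 lower, against a background of 25.2% and 15.2%. At 1 week 12 were higher and 5 lower, near the background of 23% in the first direction and below that of 19.2% in the second, and at 3 weeks 2 were higher and 6 lower, where the background was 10.4% and 12.1%. All 33 genes called at 3 days and all 12 called at 1 week were among the 40 of 1 day.

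The changes were small and regular. The median log2 difference over the 48 genes went from 0.42 at 1 day to 0.24 at 3 days, then to 0.10 (1 week) and -0.01 (3 weeks), against -0.03, 0.04, 0.02 and 0.00 over all probe sets. The median standard error was 0.081 for the proteasome genes and 0.139 for all probe sets, which lets small differences pass the test. By the brightest probe sets a change of at least 2-fold was called for 1 gene at 1 day, 2 at 3 days and 0 at 1 week and 3 weeks. The background was 7.02%, 6.6%, 6.21% and 2.36% of all probe sets. None was called at least 2-fold lower at any of these times, where the background was 7.44%, 2.2%, 3.53% and 1.75%. At 1 day the 5 crushed samples lay above all 5 contralateral samples for 40 genes (22.7% of all probe sets) and below them for 0 (23.2%). The same held at 3 days for 26 (20.5%) and 2 (10.2%), at 1 week for 7 (12.6%) and 2 (9.46%), and at 3 weeks for 2 (8.2%) and 4 (8.17%).

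Scaling bears on the middle times. When arrays were shifted to a common median, the median log2 difference of all probe sets at 3 days moved from 0.04 to -0.09 and their split from 25.2% higher and 15.2% lower to 16.9% and 26.1%. Under that scaling 19 proteasome genes were called higher and 3 lower at 3 days, and none reached 2-fold. After quantile normalization 27 were higher and 2 lower at 3 days, against 19.2% and 23.3% of all probe sets. At 1 week the count depended on the pair of replicate 3, without which 20 genes were higher and 2 lower, and without the pair of replicate 1 there were 3 lower. At 3 weeks 1 gene was higher without the pair of replicate 1 or of replicate 3, and 2 to 3 were lower without the pair of replicate 2, 4 or 5.

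**Figure D1:**
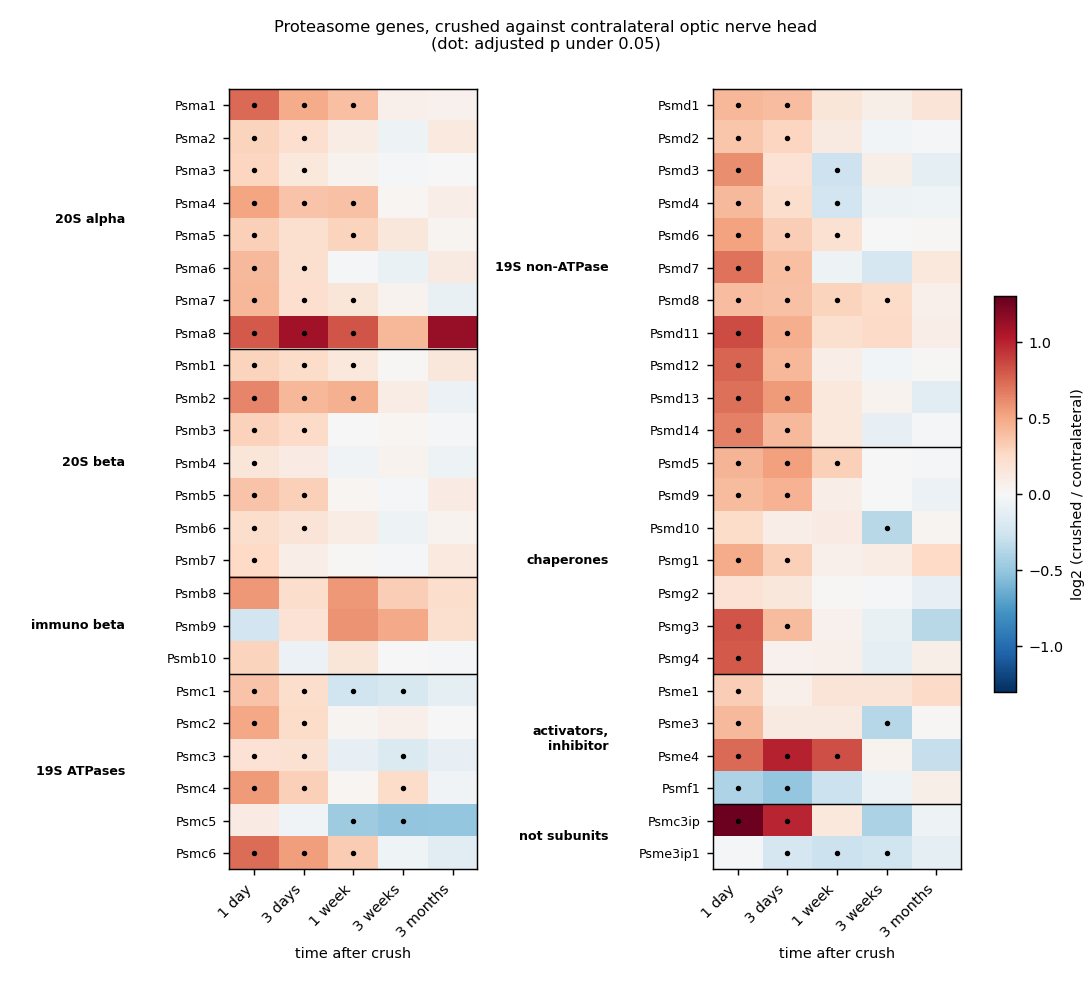
Log2 difference between crushed and contralateral ONHs for each of the 48 proteasome genes (rows, grouped by role) at the 5 times (columns), from the limma models with 5 pairs at each time. Most rows are higher at 1 day, with a median of 0.42, and near 0 at 3 weeks, and none of the 3 immunoproteasome rows was called at any time.

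The difference between the times was tested directly. From 1 day to 3 weeks the crush effect fell for 36 of the 48 genes and rose for 0, against 18.8% and 18.4% of all probe sets. Only Psmc3ip fell by at least 2-fold (-1.69 on the log2 scale), a size reached by 6% of all probe sets. Step by step the fall was called less often, for 5 genes from 1 day to 3 days (4.09%), 7 from 3 days to 1 week (6.83%) and 6 from 1 week to 3 weeks (9.25%). None rose in these steps, where 10.9%, 2.98% and 5.95% of all probe sets did. Over the 31 constitutive core and 19S genes other than Psma8, the mean log2 difference of the 5 pairs was 0.42 to 0.48 at 1 day. It was 0.20 to 0.43 at 3 days, -0.14 to 0.21 at 1 week, with the lowest value in the pair of replicate 3, and -0.14 to 0.09 at 3 weeks. The 5 pairs were thus all positive at 1 day and 3 days and of both signs later. The count from 1 day to 3 days was 2 to 9 when single pairs were left out, the highest without the pair of replicate 1 at 3 days, and 11 after quantile normalization. From 3 days to 1 week it was 4 without the pair of replicate 1 at 3 days, or of replicate 1 or 3 at 1 week. From 1 week to 3 weeks it was 10 without the pair of replicate 3 at 1 week and 2 to 3 without the pair of replicate 1, 2 or 4 at 1 week or of replicate 2 or 4 at 3 weeks.

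**Figure D2:**
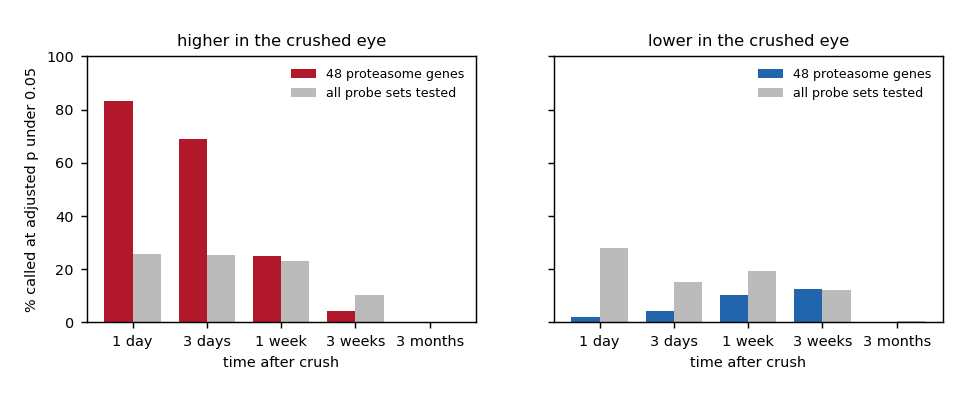
Share of the proteasome genes called higher or lower (adjusted p under 0.05) at each time, beside the same share over all probe sets tested, in percent. The share called higher falls from 83.3% at 1 day to 4.17% at 3 weeks, while that of all probe sets goes from 25.8% to 10.4%.

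All 8 genes of the alpha ring rose at 1 day, 7 at 3 days and 5 at 1 week, and 0 were called at 3 weeks. For this and the next groups the background is the share of all probe sets called higher, 25.8%, 25.2%, 23% and 10.4%. Psma1 had 2813, 2819, 2861, 2879 and 2893 in contralateral and 4616, 4623, 4631, 4850.2 and 4995 in crushed samples at 1 day. The 2 groups were far apart compared with their own spread, and the log2 difference was 0.73 (SE 0.058, adjusted p = 3.1e-09). It was 0.48 at 3 days, 0.40 at 1 week (adjusted p = 1.7e-05) and 0.06 at 3 weeks. Psma5 rose by 0.31 at 1 day (adjusted p = 0.012) by its brightest probe set. A nearly as bright one, with a mean of 4548 against 4952, was called higher at 1 day (0.39, adjusted p = 0.00017), 3 days (0.40) and 1 week (0.31), while a dim one with a mean of 178 was called lower at 1 day (-0.47, adjusted p = 0.038). Without the pair of replicate 1 at 1 day the brightest was at 0.25 (adjusted p = 0.065), and the call at 1 week, 0.29 (adjusted p = 0.022), had an adjusted p of 0.066 without the pair of replicate 1 and 0.15 without that of replicate 3. With the mean over its probe sets the value at 1 day was 0.08 (adjusted p = 0.42), and after the median shift that at 1 week was 0.22 (adjusted p = 0.086).

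Psma8, the testis paralogue of Psma7, stood out by size among the alpha genes, at much dimmer probe set values. At 3 days it had 132, 161, 189, 214 and 252 in contralateral and 250.1, 337, 398, 450.5 and 638 in crushed samples. The groups overlapped at 1 sample, and the log2 difference was 1.10 (SE 0.215, adjusted p = 0.00038, 4 of 5 pairs). It was 0.79 at 1 day, 0.82 at 1 week (adjusted p = 0.0045) and 0.43 at 3 weeks (adjusted p = 0.16). Whether Psma7 transcripts bind this probe set was not tested. Psma7 rose by 0.43 at 1 day and 0.22 at 3 days.

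The 7 constitutive beta genes all rose at 1 day, 5 rose at 3 days, 2 at 1 week and 0 at 3 weeks. The share at 1 week (28.6%) was near the background of 23%. Psmb5, which carries the chymotrypsin-like site, had 3807, 3898, 3979, 4061 and 4261 in contralateral and 4977, 5051, 5129, 5216 and 5497 in crushed samples at 1 day. The crushed samples were all above, by 0.37 on the log2 scale (SE 0.090, adjusted p = 0.0016). Psmb6, with the caspase-like site, rose by 0.23 (adjusted p = 0.0021), and Psmb7, with the trypsin-like site, by 0.25. Psmb5 was at 0.31 (adjusted p = 0.009) and Psmb6 at 0.17 (adjusted p = 0.022) at 3 days. These 2 calls at 3 days were lost without the pair of replicate 1 (adjusted p = 0.062 and 0.12) or of replicate 5 (0.066 and 0.076), and after the median shift. Psmb7 was at 0.09 and was called, at 0.16, without the pair of replicate 5. The largest of the beta genes was Psmb2, a subunit without a cutting site, with 0.63 at 1 day (adjusted p = 2e-05), 0.43 at 3 days and 0.47 at 1 week (adjusted p = 0.00081).

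All 11 non-ATPase subunits of the 19S particle rose at 1 day and 10 at 3 days. Their median log2 difference of 0.61 at 1 day compares with 0.44 for the ATPases, 0.43 for the alpha ring and 0.29 for the constitutive beta ring, an order that was not tested. Psmd11, a lid subunit, had 1889.9, 1928, 1966, 2047 and 2121 in contralateral and 3509, 3524, 3559.8, 3568 and 3723 in crushed samples at 1 day. Its log2 difference was 0.85 (SE 0.123, adjusted p = 7.4e-06), the highest of all subunits at that time. It was 0.47 at 3 days (adjusted p = 0.0044) and 0.21 at 1 week (adjusted p = 0.18), where the contralateral sample of replicate 3 had 3492 and the others 1815 to 2190.3. Without that pair it was 0.42 (adjusted p = 0.0011). A dimmer probe set of Psmd11, with a mean of 939, was called higher at 1 day, at 1.10 (adjusted p = 3.5e-07). It was also called at 1 week, at 0.34 (adjusted p = 0.032).

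Psmd12, another lid subunit, had 3173 to 3431 in contralateral and 5464 to 5605 in crushed samples at 1 day and rose by 0.76 (SE 0.058, adjusted p = 1.7e-09). Psmd13 was at 0.71 and Psmd14, the deubiquitinase of the lid, at 0.66 (adjusted p = 1.1e-06). Psmd7, its partner, was at 0.71 and at 0.40 at 3 days (adjusted p = 0.0015). A dimmer probe set of Psmd7 was called the other way at 3 days, at -0.49 (adjusted p = 0.021), and the mean over its probe sets was -0.12 there. That dimmer probe set and another were called higher at 1 week (0.42 and 0.53) and 3 weeks (0.61 and 0.54). The brightest was not called at these times (-0.07 and -0.21). Psmd8 was the only proteasome gene higher at all 4 times, with 0.40, 0.38, 0.29 and 0.24 (adjusted p = 0.013 at 3 weeks). Psmd3 and the ubiquitin receptor Psmd4 rose by 0.61 and 0.42 at 1 day and were lower at 1 week, by -0.27 (adjusted p = 0.022) and -0.25 (adjusted p = 0.0066).

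The 6 ATPases of the 19S base, which unfold the substrate, parted with time. At 1 day and 3 days 5 of them rose, the exception being Psmc5, and at 1 week and 3 weeks 1 was higher and 2 and 3 were lower. The background of lower calls at 1 week and 3 weeks was 19.2% and 12.1%. Psmc6 rose most, from 3058 to 3341 in contralateral to 5115 to 5407 in crushed samples at 1 day, by 0.73. Its brightest probe set was also called at 3 days (0.55) and 1 week (0.33). The 2 dimmer ones were called at 1 day (0.65 and 0.55). They were not called at 3 days (0.07 and 0.00) or at 1 week (0.22 and 0.05). Psmc5 was at 0.11 at 1 day and -0.04 at 3 days, neither called, although the median shift gave -0.18 at 3 days (adjusted p = 0.035). At 1 week it had 3687, 3977, 4182, 4247 and 4422 in contralateral and 2582, 2893, 2896, 3031 and 3482 in crushed samples, and at 3 weeks 3638, 3710, 4065, 4164 and 4166 against 2713, 2713, 2722, 2796 and 2902. Crushed samples were below all contralateral samples at both times. The log2 difference was -0.47 at 1 week (SE 0.070, adjusted p = 2.2e-05) and -0.51 at 3 weeks (adjusted p = 3.4e-05).

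Psmc1 rose by 0.37 at 1 day and 0.23 at 3 days. It was lower at 1 week and 3 weeks, by -0.25 and -0.21 (adjusted p = 0.0083 and 0.048). Psmc3 was lower at 3 weeks (-0.19, adjusted p = 0.027), and Psmc4 was higher (0.24, adjusted p = 0.013). A second probe set of Psmc4 was not called there, at 0.06 (adjusted p = 0.72). The ATPases thus held 3 of the 6 genes lower at 3 weeks, and the others were Psme3, Psme3ip1 and Psmd10. These 6 were 12.5% of the 48 genes, near the background of 12.1%.

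Of the assembly chaperones, which build the ring and the base and leave the finished particle, 5 of 7 rose at 1 day, 4 at 3 days and 1 at 1 week. The share at 1 week (14.3%) was below the background of 23%. Psmg3 had 1076, 1118, 1244, 1281 and 1291 in contralateral and 2011, 2015, 2026, 2149 and 2347 in crushed samples at 1 day. The log2 difference was 0.81 (SE 0.109, adjusted p = 2.9e-06), it was 0.41 at 3 days (adjusted p = 0.0048) and 0.05 at 1 week. Psmg4 was at 0.79 at 1 day (adjusted p = 0.00071) and 0.05 at 3 days, and the fall between these times was one of those called. Psmd5, a chaperone of the base, was at 0.44, 0.53 and 0.31 from 1 day to 1 week. Psmg2 was called at no time, with 0.19, 0.14, 0.02 and -0.02, and Psmd10 (gankyrin) was lower at 3 weeks (-0.36, adjusted p = 0.022).

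The activators and the inhibitor moved in different ways. Psme4, the nuclear activator PA200, had 977, 982, 990.0, 1067 and 1099 in contralateral and 1825, 1856, 2114, 2244 and 2255 in crushed samples at 3 days. The log2 difference was 0.73 at 1 day, 1.01 at 3 days (SE 0.085, adjusted p = 1.3e-08), 0.84 at 1 week and 0.05 at 3 weeks. Its fold of 2.01 at 3 days lay just past the 2-fold mark, which it missed after quantile normalization. Between 1 week and 3 weeks the crush effect fell by 0.79.

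Psmf1, an inhibitor of the 20S core in vitro (PI31), was the only gene lower at 1 day. It had 808, 828, 893, 954 and 981 in contralateral and 559.6, 566, 624, 633 and 785 in crushed samples at 3 days, with no overlap. The log2 difference was -0.40 at 1 day (adjusted p = 0.0056), -0.50 at 3 days (adjusted p = 0.0014), -0.27 at 1 week (adjusted p = 0.058) and -0.07 at 3 weeks. The call at 1 day was lost without the pair of replicate 5, where it was -0.29 (adjusted p = 0.052), and that at 3 days with the mean over probe sets (-0.24, adjusted p = 0.054). A second probe set was called lower at both times (-0.31 and -0.38), and the other two were not called. At 1 week it was called after quantile normalization (-0.33, adjusted p = 0.022) and the median shift (-0.34, adjusted p = 0.016). Psme3, the nuclear PA28 gamma, was higher at 1 day (0.42), at 0.11 and 0.12 at 3 days and 1 week, and lower at 3 weeks (-0.37, adjusted p = 0.0069). A second tested probe set was called in the same directions, at 0.95 and -0.52 (adjusted p = 0.0013 at 3 weeks), while the mean that also took in a probe set left out by the intensity filter was not called at 3 weeks (-0.20, adjusted p = 0.35). Psme1, a PA28 subunit of the interferon response, was at 0.32 at 1 day (adjusted p = 0.022), and this call was lost without the pair of replicate 2 (0.27, adjusted p = 0.091) or of replicate 5 (0.30, adjusted p = 0.067).

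The largest change at 1 day belonged to Psmc3ip, no subunit. It had 243, 259, 267, 282 and 289 in contralateral and 284, 552, 822, 873 and 1026 in crushed samples. The crushed samples spread widely, and the lowest of them lay among the contralateral ones. The log2 difference was 1.28 (SE 0.217, adjusted p = 4.5e-05), 0.99 at 3 days and -0.41 at 3 weeks. Psme3ip1 was at -0.02, -0.22, -0.28 and -0.26, and was called lower at the last 3 of these times. The call at 3 days was lost without the pair of replicate 1, 3 or 5 (adjusted p = 0.14, 0.063 and 0.18) and with the photoreceptor covariate (0.056), at 1 week without that of replicate 1 or 3 (0.082 and 0.061), and at 3 weeks without that of replicate 1, 2, 4 or 5 (0.095, 0.087, 0.11 and 0.073).

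**Figure D3:**
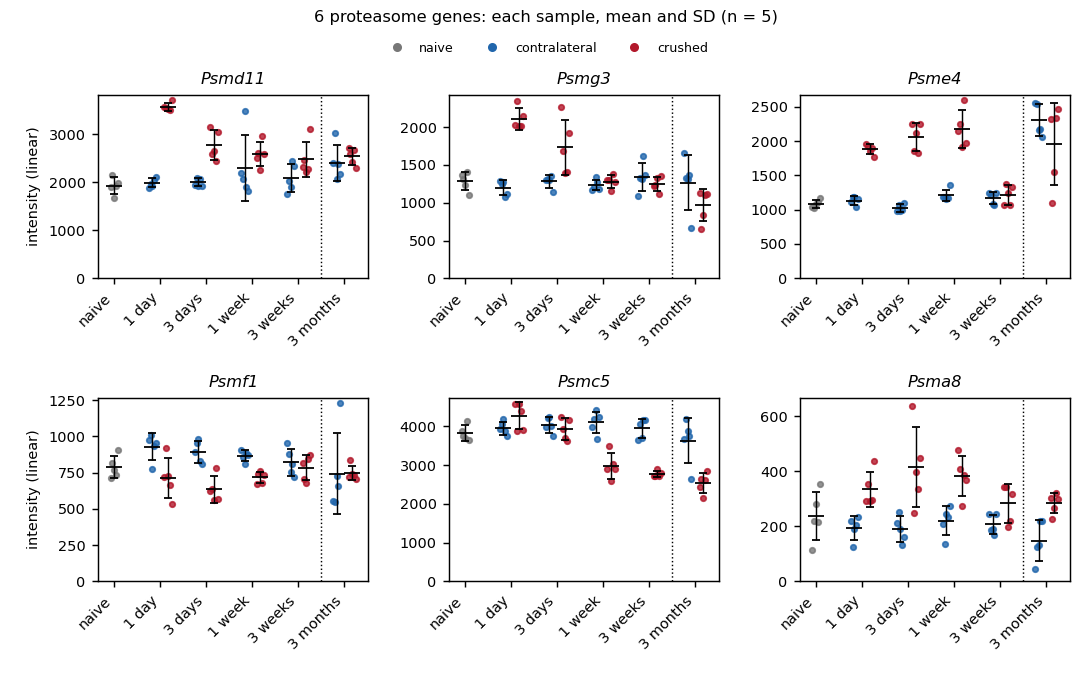
Intensity in every sample (points) for Psmd11, Psmg3, Psme4, Psmf1, Psmc5 and Psma8 in naïve, contralateral and crushed ONHs over time, with the mean of each group of 5. Psmd11 and Psmg3 are highest at 1 day, Psme4 stays high until 1 week, and all crushed samples of Psmc5 lie below the contralateral ones at 1 week and 3 weeks.

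None of the 3 immunoproteasome subunits was called at any time. Psmb8 had 1081, 1168, 1469, 1558 and 2093 in contralateral and 1332, 1828, 2036, 2491 and 3459 in crushed samples at 1 day. The groups overlapped, although all 5 pairs were higher. Its log2 difference was 0.56 at 1 day (SE 0.251, adjusted p = 0.064), 0.23 at 3 days, 0.56 at 1 week (adjusted p = 0.078) and 0.32 at 3 weeks. With the photoreceptor covariate the value at 1 day was 0.65 (adjusted p = 0.032), and without the pair of replicate 3 the value at 1 week was 0.72 (adjusted p = 0.046).

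Psmb9 had 641, 722, 927, 949 and 1449 in contralateral and 999.6, 1194, 1278, 1377 and 2112 in crushed samples at 1 week. It was at -0.25 at 1 day, 0.19 at 3 days, 0.58 at 1 week (SE 0.256, adjusted p = 0.074) and 0.49 at 3 weeks (adjusted p = 0.19). Without the pair of replicate 5 the value at 1 week was 0.75 (adjusted p = 0.04). Psmb10 was at 0.29, -0.08, 0.15 and -0.01, with 2695 to 4109 in contralateral and 3089 to 5556 in crushed samples at 1 day. The unadjusted p of the 3 genes was under 0.05 for Psmb8 at 1 day and for Psmb8 and Psmb9 at 1 week.

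These genes had larger standard errors than their counterparts, and samples of one group differed more. The coefficient of variation within naïve and contralateral groups had a median of 25.6% for the 3 immunoproteasome genes (19.2% to 27.1%). It was 4.92% for the constitutive beta genes, 5.24% for the alpha genes, 5.88% for the ATPases and 6.31% for the non-ATPase subunits. A wide spread was not theirs alone, since the dim Psma8 had 23.8%. Psmg4 had 14.1% and Psmd13 13.6%. The contralateral samples of Psmb8 at 3 days had 915, 985, 1598, 2258 and 2735, while those of Psmb5 at that time ran from 3544 to 4401.

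Each immunoproteasome subunit was compared with the constitutive subunit it replaces, as the difference of their log2 changes within each pair. Over the 20 pairs from 1 day to 3 weeks, Psmb8 exceeded Psmb5 by 0.25 (14 of 20 pairs, exact sign-flip p = 0.0728, adjusted p = 0.218, 95% interval -0.03 to 0.52). Psmb9 exceeded Psmb6 by 0.15 (12 of 20 pairs, exact sign-flip p = 0.352, adjusted p = 0.527, 95% interval -0.18 to 0.48). Psmb10 and Psmb7 differed by 0.01 (9 of 20 pairs, exact sign-flip p = 0.952, 95% interval -0.23 to 0.25). None of the 3 passed the test, and the intervals leave room for mean differences over these times of up to 0.52, 0.48 and 0.25. They set no bound on a single time, since Psmb9 minus Psmb6 went from -0.48 at 1 day to 0.56 at 3 weeks. Without the pair of replicate 1 at 3 days the first was 0.32 (adjusted p = 0.033). These tests were two-sided.

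Within single times 15 such comparisons were made, and 5 pairs cannot give an exact sign-flip p below 0.0625. Psmb8 exceeded Psmb5 in all 5 pairs at 1 week, by 0.54, with that p (exact) and an adjusted p of 0.5625. Psmb9 was below Psmb6 by -0.48 at 1 day in 4 of 5 pairs and above it by 0.49 at 1 week and 0.56 at 3 weeks in 4 of 5, with exact p of 0.1875, 0.125 and 0.125.

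**Figure D4:**
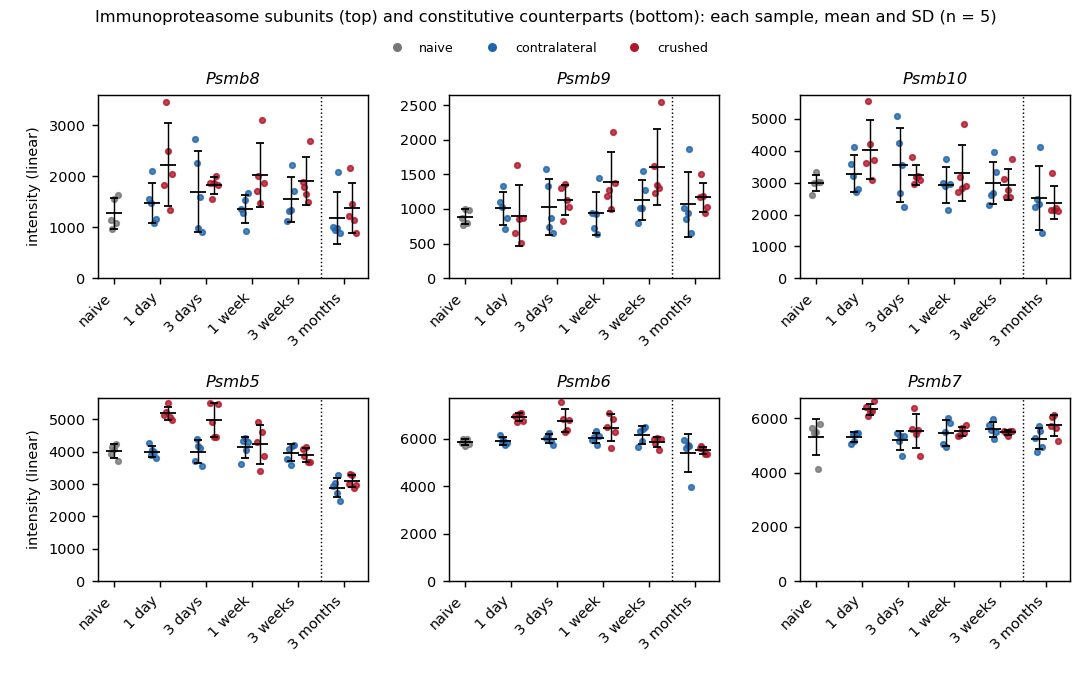
Intensity in every sample (points) of the immunoproteasome subunits Psmb8, Psmb9 and Psmb10 (top) and of the constitutive subunits they replace, Psmb5, Psmb6 and Psmb7 (bottom), with the mean of each group of 5. Crushed and contralateral points overlap at every time in the top row and separate at 1 day in the bottom row, where the median coefficient of variation within naïve and contralateral groups is 3.1% to 6.73%, against 19.2% to 27.1% in the top row.

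The wide spread was shared by the 3 immunoproteasome genes. Over the 25 naïve and contralateral samples of the first batch, Psmb8 and Psmb9 had a Pearson's r of 0.92 and a Spearman's rho of 0.90, with a permutation p of 1e-05 for each (adjusted p = 3e-05 and 4.5e-05). That p is the smallest that 100000 permutations can give, and the 9 relations were chosen after values were seen. Psmb8 and Psmb10 had r = 0.89 and rho = 0.82 (permutation p = 1e-05 for each, adjusted p = 3e-05 and 4.5e-05), and Psmb9 and Psmb10 r = 0.77 and rho = 0.69 (permutation p = 3e-05 and 2e-04, adjusted p = 6.7e-05 and 0.00045). Without the 2 samples furthest from the median of the first gene, r was 0.89, 0.83 and 0.68. With the group means removed, it was 0.93, 0.92 and 0.84, so the relation held within groups.

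Psme1 went with Psmb10 (r = 0.84, rho = 0.80, permutation p = 1e-05 and 2e-05, adjusted p = 3e-05 and 6e-05, and r = 0.74 without 2 samples). With Psmb8 its r was 0.64 and its rho 0.53 (permutation p = 7e-04 and 0.0073, adjusted p = 0.0013 and 0.011), and r fell to 0.39 without 2 samples. With Psmb9 it was 0.46 and 0.38 (permutation p = 0.019 and 0.064, adjusted p = 0.025 and 0.072), and 0.42 without 2. With the group means removed, the r of Psme1 was 0.92 with Psmb10, 0.80 with Psmb8 and 0.73 with Psmb9. Replaced and replacing subunits gave r = 0.18 and rho = 0.24 for Psmb8 with Psmb5 (permutation p = 0.38 and 0.25, adjusted p = 0.38 and 0.25). They gave 0.51 and 0.48 for Psmb9 with Psmb6 (permutation p = 0.0096 and 0.016, adjusted p = 0.014 and 0.021) and -0.39 and -0.55 for Psmb10 with Psmb7 (permutation p = 0.054 and 0.005, adjusted p = 0.06 and 0.0091). Without 2 samples r was 0.26, 0.45 and -0.48 for these, and with the group means removed 0.23, 0.49 and -0.34.

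Of 10440 genes, those with the highest r to Psmb8 over these 25 samples were Zbp1 (0.95), Mx1 (0.94), Bst2, Isg20 and Oas1a (0.93 each), all known as interferon-stimulated genes. The next was Psmb9 (0.92). For Psmb9 they were Psmb8 (0.92) and Ifi35 (0.90), for Psmb10 Il18bp (0.91), Bst2 and Psmb8, with Tap1, the peptide transporter of class I loading, at 0.89. For Psmb5 the highest was Mrpl43 (0.79) and for Psme4 Hpgd (0.86).

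**Figure D5:**
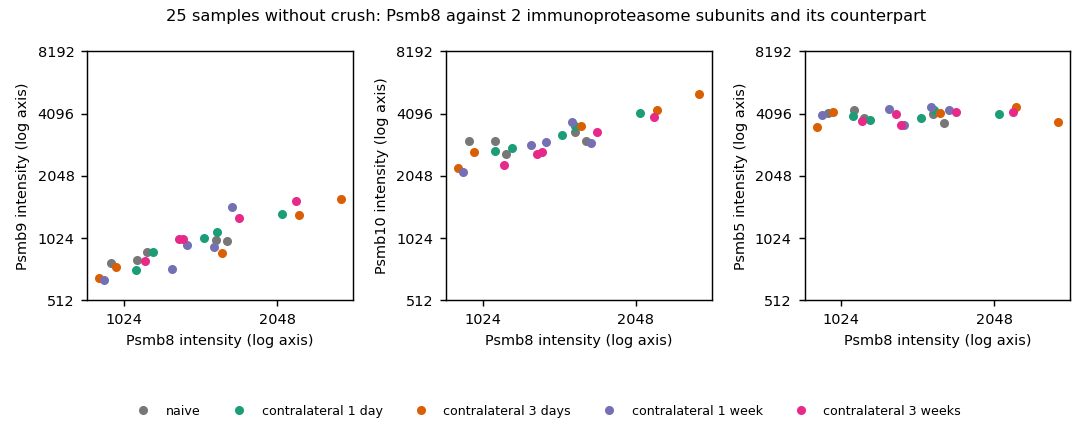
Intensity of Psmb8 against that of Psmb9, Psmb10 and Psmb5 in the 25 naïve and contralateral samples of the first batch, 1 point per sample. The points rise together for Psmb9 (r = 0.92) and Psmb10 (r = 0.89), and show no such rise for Psmb5 (r = 0.18).

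The surroundings of the pathway were read from lists of their own. Of 7 proteasome factors outside the symbol rule, 4, 3, 2 and 1 were higher and 0, 0, 0 and 2 lower from 1 day to 3 weeks. Sem1, a small 19S subunit, was at 0.50, 0.48, 0.46 and 0.15, and Uchl5, a deubiquitinase of the proteasome, rose by 0.51 at 1 day and was lower at 3 weeks, at -0.51 (adjusted p = 0.00026). Pomp, the maturation factor of the core, was at 0.17 at 1 day and -0.19 at 3 weeks, and Txnl1, a thioredoxin bound to the proteasome, rose by 0.50 at 1 day. The background for this and the next lists is the share of all probe sets, 25.8%, 25.2%, 23% and 10.4% higher and 28%, 15.2%, 19.2% and 12.1% lower. The counts higher in this list were near it at 1 week and 3 weeks.

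Of 9 shuttle factors and parts of the p97 machine, which hand substrates to the proteasome, 4, 2, 0 and 0 were higher and 1, 0, 7 and 2 lower. Vcp (p97) was at 0.35 and 0.38 and Rad23b at 0.43 and 0.41 at 1 day and 3 days, and Ubqln1 was at -0.48 at 1 week (adjusted p = 3.9e-05). Of 6 transcription factors and their partners known to act on proteasome genes, 2, 0, 2 and 2 were higher and 2, 2, 2 and 1 lower, and nothing is read from these counts beside that background. Nfe2l1 was at -0.07, -0.14, -0.39 and -0.04, called lower at 3 days and 1 week. Maff, a small partner of these factors, was the only one called at least 2-fold, at 1.06 at 1 day (adjusted p = 3.7e-05), and Mafg was at 0.58. Genes of ubiquitin and its activating enzymes were not analysed here.

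Of 10 genes of MHC class I peptide loading, 1, 1, 3 and 1 were higher and none lower, shares of higher genes that were below or near the background. H2-M3, a class I molecule, rose by 1.13 at 1 week and 1.03 at 3 weeks, and Tap1 was at 0.31, 0.30, 0.49 and 0.25, not called. Of 11 genes of interferon gamma signalling tested, 3, 5, 5 and 5 were higher and none lower, near the background of higher calls at 1 day and above it later. At 1 week the class II transactivator Ciita was at 1.83 (adjusted p = 9.7e-07), the receptor chain Ifngr2 at 1.41 and the macrophage factor Irf8 at 1.37. Irf1, which acts on immunoproteasome genes, was at 0.23, 0.24, 0.25 and 0.36, not called. At 1 week the summed microglia and macrophage markers had a median of 76394 in crushed and 43871 in contralateral samples, and 6 of 10 T and NK cell markers were higher. The part of these cells in the values of Psmb8, Psmb9, Ciita and Irf8 was not tested.

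At 3 months none of the 48 genes was called, against 0.223% of 18823 probe sets higher and 0.377% lower, and 0.207% and 0.255% at least 2-fold. At an unadjusted p under 0.05 there was 1 in each direction, against 1260 of the 18823 probe sets higher and 1389 lower. By the methods' paired t-test without adjustment 3 genes were higher and 1 lower. The share of all probe sets by that test was not counted, so nothing is read from these 2 counts. The median log2 difference was 0.01. The crushed samples lay above all contralateral samples for 1 gene, Psma8 (3.51% of all probe sets), and below them for 0 (3.28%). Psma8 had 44.7, 124, 131, 219.8 and 220.2 in contralateral and 228, 268, 300, 304 and 323 in crushed samples, a log2 difference of 1.14 (SE 0.355, adjusted p = 0.24). Psmc5 was at -0.51 (adjusted p = 0.22), with 2652 to 4201 in contralateral and 2149 to 2858 in crushed samples. Psmg3 was at -0.36, Psme4 at -0.29, Psmg1 at 0.26 and Psme1 at 0.25. The contralateral sample of replicate 5 had the lowest Psmb6 (3968), Psmc5 and Psmg3 (672.5) of its group and the highest Psmf1 (1228), and the core genes of its pair were 0.22 higher on average in the crushed sample, against -0.13 to 0.01 in the other pairs.

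The contralateral eye was compared with naïve mice to see whether the uninjured side moved. At 1 day and 3 days none of the 48 genes was called, and only 0.0161% of 18669 probe sets was higher and 0% lower at 1 day, and 0% and 0% at 3 days. At 1 week none was called either, against 0.3% and 0.246%. At 3 weeks Psmg4 was higher in contralateral samples (611 against 428, 0.49 on the log2 scale, adjusted p = 0.045), as was Psmb1 (0.13, adjusted p = 0.04), against a background of 4.22% higher and 5.92% lower, and none was lower. At an unadjusted p under 0.05, 2, 3, 4 and 5 genes were higher and 0, 0, 1 and 2 lower at the 4 times. Of all 18669 probe sets, 928, 701, 1835 and 2498 were higher at that p and 340, 335, 854 and 2673 lower. The 2 calls at 3 weeks depended on single samples, since none was left without any 1 of naïve replicates 1 to 4 or contralateral replicates 2 to 5, and 4 were called without contralateral replicate 1. Without naïve replicate 5, 2 genes were lower.

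Over all 80 tested probe sets of the proteasome genes, 61, 49, 19 and 4 were higher and 3, 4, 6 and 7 lower from 1 day to 3 weeks, and none of 83 was called at 3 months. The background from 1 day to 3 weeks was 25.8%, 25.2%, 23% and 10.4% higher and 28%, 15.2%, 19.2% and 12.1% lower. By the study's 3 criteria, which ask for a lower bound of the fold above 2, 0 genes were called at 1 day and 0 at 3 days.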

How the data were processed

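The 55 arrays (Mouse Genome 430A) measured messenger RNA amplified from pooled ONHs. The authors normalized them in DChip by the invariant set method and deposited a linear intensity for each probe set from the difference between perfect match and mismatch probes. The number of arrays and the signal over background limit the precision. Samples were grouped by their labels. Values were set to at least 20, which touched 9.9% of them but no proteasome value, and log2 was taken.

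The crush effect was fitted with limma 3.58.1 under R 4.3.3 (files were read with data.table), using lmFit and then eBayes with its trend option. The 40 arrays from 1 day to 3 weeks shared a model in which pairs were fixed blocks and each time had its own crush term, the 10 arrays at 3 months had their own, and the 25 naïve and contralateral arrays had an unpaired one. Probe sets with at least 5 arrays at 50 or more were tested, which all 48 genes were. A call needed an adjusted p (Benjamini-Hochberg, over all probe sets of the comparison) under 0.05. All log2 differences are crushed minus contralateral and fitted, and p-values measure the spread between the pools. The study paired the left and right eyes of the same mice, but the labels give replicate numbers only. Arrays of the same time and number were taken as pairs, and all results by pair rest on that match. The correlation of paired deviations from the group means was -0.45 to 0.52, with values of both signs, and does not show the match. Counts without the block are given below. On simulated data for 1 day (19230 probe sets), 54% of changes of 0.5, 92% of 1, 98% of 1.5 and 89.8% of -1 (log2) were called. Each size was given to 49 or 50 probe sets drawn at random, far fewer than were called in the data. The 2 arrays of a pair were given a shared part of the spread. The shares are thus no measure of the recovery for the proteasome genes, whose standard errors were smaller.

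Named genes were the immunoproteasome subunits and their counterparts, the activators and the inhibitor, genes called at least 2-fold, the 3 highest and 3 lowest at each time, those never called and those with a probe set called the other way. Others were added after their values were seen. The genes and lists were chosen with earlier results of these data known. Alternatives changed the scaling, the floor, the filter, the block, the model, the probe set, the replicates and the test, with the methods' paired t-test among them. Figures were drawn with Python 3.11.15 and matplotlib 3.10.9.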

Additional observations from a re-analysis of the deposited data

Results flagged for a closer look

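The fall of the crush effect with time was tested as a contrast between times. It was called for 5 proteasome genes from 1 day to 3 days, where 4.09% of all probe sets were called. The counts were 7 from 3 days to 1 week (6.83%) and 6 from 1 week to 3 weeks (9.25%). Those 6 were 12.5% of the proteasome genes, near the background. It was called for 36 from 1 day to 3 weeks (18.8%). From 1 day to 3 weeks the log2 difference of the effects was -1.69 for Psmc3ip, -0.91 for Psmg3, -0.79 for Psme3, -0.68 for Psme4, -0.62 for Psmc5 and -0.60 for Psmd11. It was -0.40 for Psmb5, -0.29 for Psmb6 and -0.28 for Psmb7. From 3 days to 1 week Psmc5 differed by -0.42, and from 1 week to 3 weeks Psme4 differed by -0.79 and Psme3 by -0.48.

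Single samples lay far from the other 4 of their group in 13 of the 165 sets of gene and group examined (7.88%), where chance gives about 1 in 20 sets. At 3 months these were the contralateral Psmb8 of replicate 4 (2082), the contralateral Psmb6 (3968) and Psmf1 (1228) of replicate 5, the contralateral Psmc3ip of replicate 1 (375), and the crushed Psmb10 (3301) and Psmf1 (835) of replicate 2. In the first batch they were the crushed Psmb10 of replicate 4 at 1 week (4830), the naïve Psmb7 of replicate 4 (4136) and the contralateral Psme4 of replicate 5 at 1 week (1355). The others were Psmd11 in the crushed replicate 5 at 1 day (3723), the contralateral replicate 3 at 1 week (3492) and the crushed replicate 5 at 3 weeks (3108), and Psmg3 in the contralateral replicate 5 at 3 days (1140).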

How the results depend on the processing

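The counts of proteasome genes called higher at 1 day and lower from 1 day to 3 weeks stayed within 1.5 times under the alternatives run for each. The change from 1 day to 3 weeks was not fitted with a model for each time or the paired t-test. After quantile normalization 1 gene was higher from 1 week to 3 weeks, 11 were lower from 1 day to 3 days, 0 were at least 2-fold higher at 3 days, and Psmb10 minus Psmb7 was -0.01. After the median shift 19 were higher at 3 days (0 at least 2-fold, median 0.10), 1 was higher from 1 week to 3 weeks, 18 and 4 were lower in the first 2 steps, and 1 was higher in contralateral against naïve samples at 3 weeks, as without a filter. With a model for each time 7 were higher at 1 week and 1, 1 and 3 lower from 3 days to 3 weeks. With the mean over probe sets 1 was higher at 3 weeks, 1 at least 2-fold higher at 3 days, 1 and 3 lower at 3 days and 1 week and 3 from 1 week to 3 weeks, the median at 1 day was 0.40, and Psmd7 at 3 days was -0.12. With the photoreceptor covariate, chosen after seeing the data, 1 was lower at 3 days and 3 from 1 day to 3 days. The study's 3 criteria, with the bound computed as described above, gave 0 at least 2-fold higher at 1 day and 0 at 3 days. The methods' paired t-test gave 3 higher and 1 lower at 3 months and 3 lower at 1 week. After adjustment it gave 16, 2 and 1 higher from 3 days to 3 weeks and 0, 0, 0 and 1 lower from 1 day to 3 weeks. The share of all probe sets was counted for the 2 scalings at single times only. The other counts, here and in the next paragraph, have no share under the same setting beside them. They show whether a main count moved, and nothing more is read from them about the proteasome genes. The cause was not tested.

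Without the replicate block for the pairing the counts higher were 41, 33, 13 and 2 and no call count moved past 1.5 times. Leaving out pairs one at a time gave 8 to 20 higher at 1 week, 1 to 2 at 3 weeks, 0 to 1 from 1 day and from 1 week to 3 weeks, and 0 to 3 at least 2-fold at 3 days. It gave 0 to 1, 1 to 2, 2 to 5 and 2 to 6 lower at the 4 times and 2 to 9, 4 to 9 and 2 to 10 in the 3 steps. For contralateral against naïve samples at 3 weeks it gave 0 to 4 higher and 0 to 2 lower, for Psmb10 minus Psmb7 -0.06 to 0.05, and for Psmb8 minus Psmb5 0.18 to 0.32. Of 33 calls of named genes 12 were lost under some alternative and 1, Psmd7 at 3 days, changed sign, and of 67 values not called 11 were gained.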
